A study of Homo sapiens with 4 samples.

Results

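Fibroblast growth factor (FGF) ligands, FGF receptors and an FGF-binding protein were examined in endothelial cells with and without the transcriptional repressor GFI1. The group held 9 genes, chosen by symbol from 19912 gene identifiers: FGFBP3, the ligand-family genes FGF12, FGF13 and FGF2, and the receptor-family genes FGFR1, FGFR2, FGFR3, FGFR4 and FGFRL1. The 9 genes were picked with the difference between the genotypes already known, so that difference is described for them and not tested. The GFI1-KO group comprised 2 RNA sequencing libraries of GFI1-knockout cells, and the WT group 2 libraries of wild-type cells. All 4 came from endothelial cells made from H1, a human embryonic stem cell line, and sorted as GATA2/eGFP-positive; the marker for the sort is shared by both genotypes. The labels give neither the number of knockout clones, nor the edited part of GFI1, nor the day of differentiation.

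FGF signalling starts when a secreted FGF binds a receptor tyrosine kinase together with heparan sulphate on the cell surface, and the receptor then drives the RAS-MAPK cascade. Most FGFs are held in the matrix by heparan sulphate, and FGF-binding proteins release them from that store. A separate branch, the intracellular FGFs or FGF homologous factors, is not secreted and binds voltage-gated sodium channels. In vascular development FGF signalling supports the formation of mesoderm and the growth of endothelium.

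GFI1-KO replicate 1 was shallow, at 146584 counts, against 2332621 in GFI1-KO replicate 2 and 2239214 and 2417410 in the WT libraries. Values are given as CPM, counts scaled to a common library total with TMM factors, and 3 counts, taken as the floor of detection, stood for 19.9 CPM in GFI1-KO replicate 1 and for 1.26 to 1.34 CPM in the other libraries. GFI1 itself was at 19.9 and 19.6 CPM in the GFI1-KO libraries, against 58.5 and 58.3 CPM in the WT libraries, and it fell by 1.57 on the log2 scale (SE 0.31; adjusted p = 0.0215, edgeR quasi-likelihood test, Benjamini-Hochberg). The GFI1 value in GFI1-KO replicate 1 rests on 3 counts, at the floor. Its exact 95% Poisson counting interval, 4.10 to 58.1 CPM, ends near the WT values. GATA2, the marker of the sort, fell too, at 139 and 124 CPM in GFI1-KO against 293 and 252 CPM in WT (log2 fold change -1.09, SE 0.24, edgeR adjusted p = 0.0376). Both calls were lost with DESeq2 (adjusted p = 0.582 for GFI1 and 0.168 for GATA2) and, in edgeR, without WT replicate 1 (0.137 and 0.446), WT replicate 2 (0.0960 and 0.0876) or GFI1-KO replicate 2 (0.271 and 0.131). GATA2 also missed the threshold with the newer dispersion (edgeR adjusted p = 0.0675), upper-quartile scaling (0.0518) and a mean of at least 5 CPM (0.0673). All 10 endothelial markers had reads, led by KDR, and their summed level was 7790 and 9223 CPM in GFI1-KO against 6438 and 6632 CPM in WT. The summed levels of 8 mesenchymal markers were 583 and 723 CPM in GFI1-KO, against 892 and 732 CPM in WT. Those of 8 stem cell markers, which came largely from LIN28A with NANOG and PRDM14 at 0, were 603 and 569.7 CPM in GFI1-KO against 748 and 779 CPM in WT. The 11 blood markers, with PTPRC, HBE1, HBG1 and HBG2 at 0, summed to 6.62 and 15.6 CPM in GFI1-KO against 28.1 and 44.1 CPM in WT, and the 5 epithelial markers to 225 and 539.9 CPM against 652 and 447 CPM. The blood sum in GFI1-KO replicate 1 was 1 count, of PF4, and lay under the floor. The part of these marker levels in the values below was not tested. In bulk RNA fewer cells of a type and less RNA per cell cannot be told apart.

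The sequences upstream of FGFBP3 and FGF12 are shown because these were the members with the lowest and the highest GFI1-KO levels relative to WT. Each run gives the 250 bases before a RefSeq transcript start (GRCh38.p14), 5′ to 3′ on the strand of the gene, and capitals mark AATC, the core of the GFI1 binding motif, or its reverse complement GATT. The FGFBP3 run lies at chr10:91909487-91909736, and the FGF12 runs lie before the distal start at chr3:192727542-192727791 and before the proximal start at chr3:192409598-192409847, all on the minus strand.
FGFBP3: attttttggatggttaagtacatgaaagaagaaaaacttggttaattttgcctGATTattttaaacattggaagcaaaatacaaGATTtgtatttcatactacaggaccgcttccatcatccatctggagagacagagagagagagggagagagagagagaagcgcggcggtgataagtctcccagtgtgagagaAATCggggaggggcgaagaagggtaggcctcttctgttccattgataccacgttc
FGF12 distal start: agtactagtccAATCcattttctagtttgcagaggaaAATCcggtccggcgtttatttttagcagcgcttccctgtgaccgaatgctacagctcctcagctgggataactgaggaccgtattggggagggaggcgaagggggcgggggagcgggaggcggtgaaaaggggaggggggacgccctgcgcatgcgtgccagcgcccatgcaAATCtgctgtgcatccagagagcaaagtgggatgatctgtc
FGF12 proximal start: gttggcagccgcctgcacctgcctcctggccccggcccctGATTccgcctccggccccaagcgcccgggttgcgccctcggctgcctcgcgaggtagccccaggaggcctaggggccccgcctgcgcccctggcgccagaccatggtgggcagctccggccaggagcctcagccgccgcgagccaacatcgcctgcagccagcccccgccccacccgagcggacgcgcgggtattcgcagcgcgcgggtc
In windows of 300 bases that add the 50 bases from the start onward, AATC occurred on either strand 3 times at FGFBP3, 3 times at the distal FGF12 start and once at the proximal one. At FGFBP3 the matches began at positions -197, -166 and -55 relative to the transcript start. Among 35116 RefSeq promoter windows of the same length, 68.99% held AATC, with a mean of 1.469 matches. The longer form AAATCA occurred in none of these 3 windows and in 13.17% of all windows. The motif GATAA, of the GATA factors, occurred once at FGFBP3 and once at the distal FGF12 start, against 22.74% of all windows with a match. Of the 15 windows of 8 members examined, those of FGFR3 and FGFR4 and 1 of the 5 of FGFR2 held no AATC. A match in letters is a description and not a binding site. The proximal FGF12 window was 75.7% G or C and held 34 CpG, the FGFBP3 window was 45.7% G or C with 10 CpG, and the median window was 58.7% with 14.

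All 9 members passed the filter on low counts. FGF12 passed it through the GFI1-KO libraries, where it was higher, since its WT counts of 0 and 7 fell short. In GFI1-KO replicate 1 that pass rests on 3 counts. In the fit across all 11380 genes tested, FGFBP3 and FGF12 were among the 109 genes past the threshold of an adjusted p of 0.05, which was 0.958% of the genes; this contrast had been used to pick the members, and nothing is read from their share. The GFI1-KO libraries did not overlap the WT libraries for 7 of the 9, as for 41.2% of all tested genes; this count too was in view when the members were picked. FGF12, FGF13, FGFR1 and FGFR2 lay higher in GFI1-KO without overlap (18.6% of all tested genes), FGFBP3, FGFR3 and FGFRL1 lay lower without overlap (22.7%), and FGF2 and FGFR4 overlapped. For FGF2, FGFR3 and FGFRL1 the GFI1-KO replicate 1 value rests on 1 count, and for FGF12, FGF13, FGFR2 and FGFR4 on 3.

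**Figure D1:**
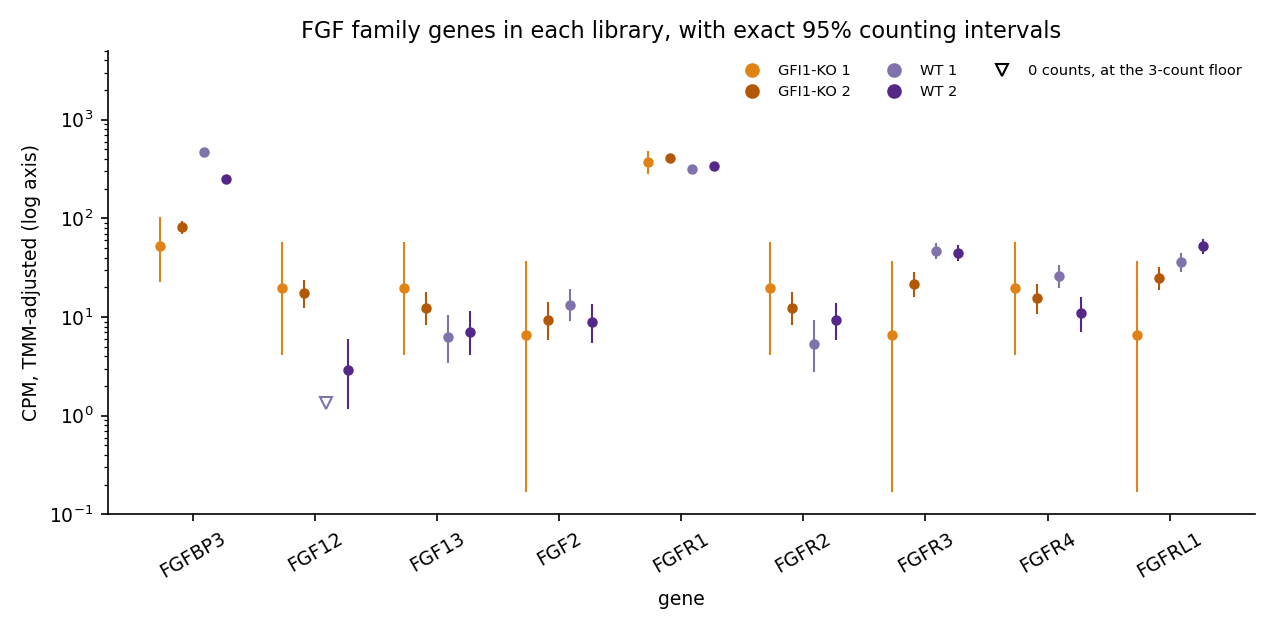
CPM of the 9 genes on a log axis in each library, GFI1-KO left of WT, with exact 95% Poisson counting intervals as bars; an open triangle marks 0 counts at the 3-count floor. FGFBP3 lay at 53.0 and 81.5 CPM in GFI1-KO and at 471 and 249 CPM in WT, and the intervals of GFI1-KO replicate 1 were wide for genes with 1 to 3 counts.

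FGFBP3 was the member with the largest lower level in GFI1-KO cells. FGFBP3 (ENSG00000174721; GRCh38 chromosome 10, 91906589 to 91909483, minus strand) encodes a secreted carrier that binds FGFs and is thought to free them from heparan sulphate. It had 8 and 183 counts in the GFI1-KO libraries, against 1054 and 593 counts in the WT libraries. This came to 53.0 and 81.5 CPM in GFI1-KO and to 471 and 249 CPM in WT. Both GFI1-KO libraries lay well below both WT libraries, and the WT libraries themselves differed widely. At the WT level, GFI1-KO replicate 1 would have held 53.8 counts where it held 8. GFI1-KO averaged 67.2 ± 20.1 CPM and WT 359.8 ± 157 CPM (SD, n = 2 each). The fitted log2 fold change was -2.25 (SE 0.32), and pooling the counts of each genotype gave a ratio of 0.224 (exact 95% counting interval 0.191 to 0.260). Intervals of pooled ratios, here and below, cover counting error alone, leave out the spread between libraries and are not tests. Most of the pooled GFI1-KO counts came from replicate 2. The other FGF-binding protein genes, FGFBP1 and FGFBP2, were at 0 counts in every library. At 0 counts the exact 95% intervals reach 24.4 and 1.64 CPM in the GFI1-KO libraries, and 1.65 and 1.55 CPM in the WT libraries. Exons of FGFBP3 overlap the antisense gene AL359198.1, and the strand setting of the counting is not given, so reads of both may be mixed.

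FGF12, an intracellular FGF, had few reads in WT and more in GFI1-KO. FGF12 (ENSG00000114279; chromosome 3, 192139395 to 192767764, minus strand) had 3 and 39 counts in the GFI1-KO libraries, against 0 and 7 counts in the WT libraries. The levels were 19.9 and 17.4 CPM in GFI1-KO, against 0 and 2.94 CPM in WT. The values of both GFI1-KO libraries were above both WT values, but the interval of GFI1-KO replicate 1, 4.10 to 58.1 CPM, overlaps that of WT replicate 2, which ends at 6.05 CPM. The fitted log2 fold change was 3.50 (SE 0.74), and the pooled ratio was 11.6 with an interval of 5.15 to 30.5. The size rests on few WT reads: the log2 fold change was 2.58 without WT replicate 1. Without WT replicate 2 the only WT library left had 0 counts and the fitted value of 7.81 depends on the prior count. Counts are per gene and do not tell the 2 starts shown above apart.

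FGF13, another intracellular FGF that in neurons also binds microtubules, was higher in GFI1-KO by less than FGF12. FGF13 (ENSG00000129682; chromosome X, 138614731 to 139222777, minus strand) was at 19.9 and 12.5 CPM in GFI1-KO, against 6.25 and 7.13 CPM in WT. The groups did not overlap, though GFI1-KO replicate 1 held 3 counts. The means were 16.2 ± 5.24 and 6.69 ± 0.624 CPM (SD, n = 2 each) for GFI1-KO and WT, with a log2 fold change of 0.99 (SE 0.50). The pooled ratio was 1.93, with an interval of 1.13 to 3.28. FGF13 shares exon positions with the antisense genes FGF13-AS1 and AL031386.1.

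FGF2, the basic FGF that acts on endothelial and stem cells, was low and did not separate the genotypes. FGF2 (ENSG00000138685; chromosome 4, 122826708 to 122898236, plus strand) was at 6.62 and 9.35 CPM in GFI1-KO, against 13.4 and 8.81 CPM in WT. GFI1-KO replicate 2 lay between the WT libraries, and GFI1-KO replicate 1 rests on 1 count. The log2 fold change was -0.29 (SE 0.50), and the pooled ratio of 0.832 had an interval of 0.480 to 1.40. NUDT6 overlaps FGF2 on the opposite strand.

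The other FGF ligands were nearly silent, with the exception of FGF10 and FGF11. Of the 19 ligand genes outside the 9 members, 10 had at least 1 count, and FGF10 and FGF11 passed the low-count filter. FGF10, which in embryos is made mostly by mesenchyme and signals through FGFR2, was at 66.2 and 45.8 CPM in GFI1-KO, against 38.4 and 40.3 CPM in WT. It held the highest level per length of any FGF ligand in all 4 libraries, at 22 and 15.2 CPM per kb in GFI1-KO and at 12.8 and 13.4 CPM per kb in WT, where kb counts the union of a gene's exons. FGF10 supplied 67.7% and 67.6% of the summed ligand level per length in the GFI1-KO libraries, against 71.6% and 76.1% in the WT libraries. Its log2 fold change was 0.33 (SE 0.29, edgeR adjusted p = 0.856). FGF11, a further intracellular FGF, was at 13.2 and 9.35 CPM in GFI1-KO and at 8.93 and 6.71 CPM in WT (log2 fold change 0.32, SE 0.52, edgeR adjusted p = 0.945). FGF14, the remaining intracellular FGF, had 0 counts in all libraries. FGF6, FGF7, FGF9, FGF17, FGF18, FGF19, FGF22 and FGF23 had at most 5 counts in any library. Of these, FGF9 had 1 and 5 counts in GFI1-KO and 1 and 1 in WT. FGF10 overlaps FGF10-AS1, and FGF11 overlaps AC113189.2, AC113189.3 and AC113189.4.

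**Figure D2:**
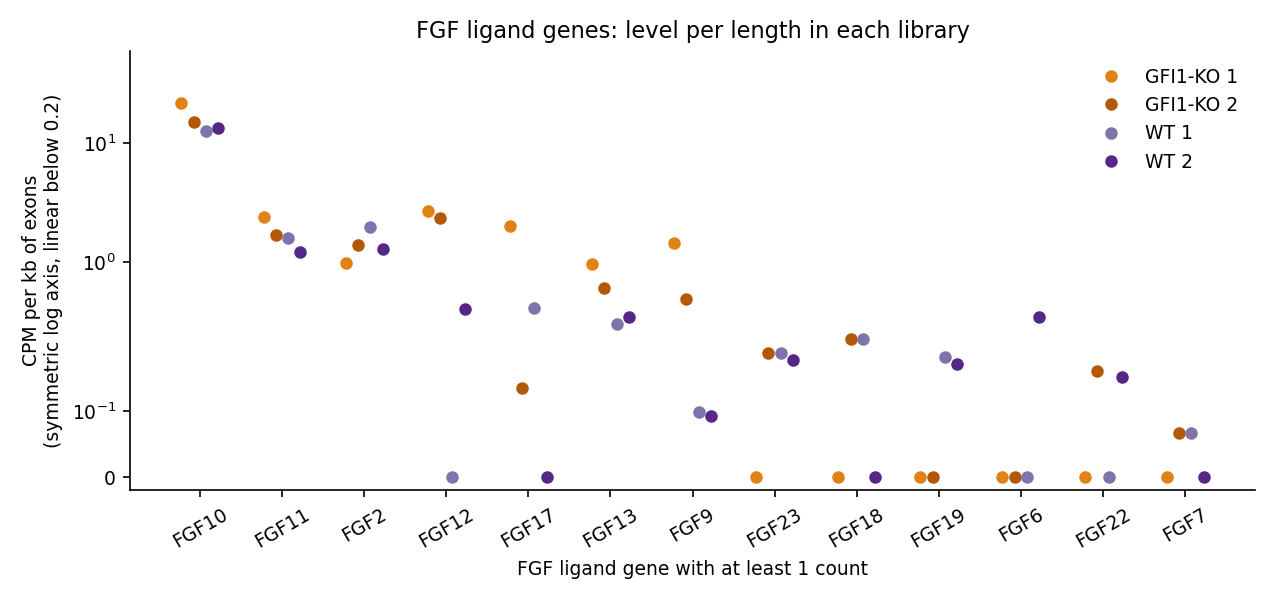
Level per length (CPM per kb of exons, symmetric log axis, linear below 0.2) of the 13 FGF ligand genes with at least 1 count, 1 point per library, GFI1-KO left of WT. FGF10 stood highest in every library, at 12.8 to 22 CPM per kb.

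FGFR1 dominated the receptor genes in both genotypes and was slightly higher in GFI1-KO. FGFR1 (ENSG00000077782; chromosome 8, 38400215 to 38468834, minus strand), a receptor tyrosine kinase that binds FGF2, was at 371 and 412 CPM in GFI1-KO, against 320.2 and 340 CPM in WT. The groups were separate by a narrow margin, and the interval of GFI1-KO replicate 1, 280.2 to 482 CPM, covers both WT values. The log2 fold change was 0.26 (SE 0.21), and the pooled ratio was 1.24 with an interval of 1.14 to 1.34. That interval covers counting error alone, and 925 of the 981 pooled GFI1-KO counts came from replicate 2. FGFR1 shares exon positions on the opposite strand with LETM2 and AC087623.1.

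FGFR3 and FGFRL1 were lower in GFI1-KO. FGFR3 (ENSG00000068078; chromosome 4, 1793293 to 1808872, plus strand), a receptor kinase known for restraining bone growth, was at 6.62 and 21.8 CPM in GFI1-KO, against 46.9 and 44.9 CPM in WT. Both GFI1-KO libraries lay below the closely matched WT libraries. GFI1-KO replicate 1 held 1 count where 6.92 would have matched the WT level, and its interval reached up to 36.9 CPM. The log2 fold change was -1.20 (SE 0.34), and the pooled ratio was 0.455 with an interval of 0.327 to 0.621. FGFRL1 (ENSG00000127418; chromosome 4, 1009936 to 1026897, plus strand), a receptor-like protein that lacks the kinase domain, was at 6.62 and 24.9 CPM in GFI1-KO, against 35.7 and 52.0 CPM in WT. The groups did not overlap, and GFI1-KO replicate 1 again held 1 count, against 6.66 at the WT level. The interval of that count, 0.168 to 36.9 CPM, covers the value of WT replicate 1. The log2 fold change of FGFRL1 was -0.96 (SE 0.36), and the pooled ratio was 0.539 with an interval of 0.394 to 0.726. Without GFI1-KO replicate 2, which leaves that 1 count as the whole GFI1-KO group, the log2 fold changes were -2.77 for FGFR3 and -2.71 for FGFRL1.

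FGFR2 and FGFR4 were low in both genotypes. FGFR2 (ENSG00000066468; chromosome 10, 121478334 to 121598458, minus strand), whose splice forms serve epithelium or mesenchyme, was at 19.9 and 12.5 CPM in GFI1-KO, against 5.36 and 9.23 CPM in WT. Both GFI1-KO values were higher, on 3 and 28 counts against 12 and 22, with a log2 fold change of 0.86 (SE 0.51) and a pooled ratio of 1.76 (1.04 to 2.95). FGFR4 (ENSG00000160867; chromosome 5, 177086886 to 177098144, plus strand), the receptor for FGF19 in liver, was at 19.9 and 15.6 CPM in GFI1-KO, against 25.9 and 10.9 CPM in WT. The GFI1-KO values lay between the WT values, and the log2 fold change was -0.18 (SE 0.47). Leaving out either WT library moved it to 0.59 (without replicate 1) or -0.65 (without replicate 2).

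The makeup of the receptor family shifted with these values. FGFR1 supplied 73.4% and 65.9% of the summed level per length of the 5 receptor genes in the GFI1-KO libraries, against 48.7% and 49.3% in the WT libraries. FGFR3 supplied 3.74% and 9.97% in GFI1-KO, against 20.4% and 18.6% in WT, and FGFRL1 4.38% and 13.3% against 18.1% and 25.2%. As a share of reads alone, FGFR1 held 87.5% (exact 95% binomial interval 76.8% to 94.4%) and 84.6% (82.4% to 86.7%) in GFI1-KO, against 73.8% (70.9% to 76.5%) and 74.4% (71.7% to 77.0%) in WT. The summed level of the 5 genes was 36.5 and 45.1 CPM per kb in GFI1-KO, against 47.5 and 49.8 CPM per kb in WT. These shares and sums depend on the length used. Per kb of the union of exons FGFR1 averaged 28.3 CPM in GFI1-KO and 23.8 in WT. Per kb of the longest transcript it averaged 63.0 and 53.1, and the summed levels of the genotypes then overlapped.

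**Figure D3:**
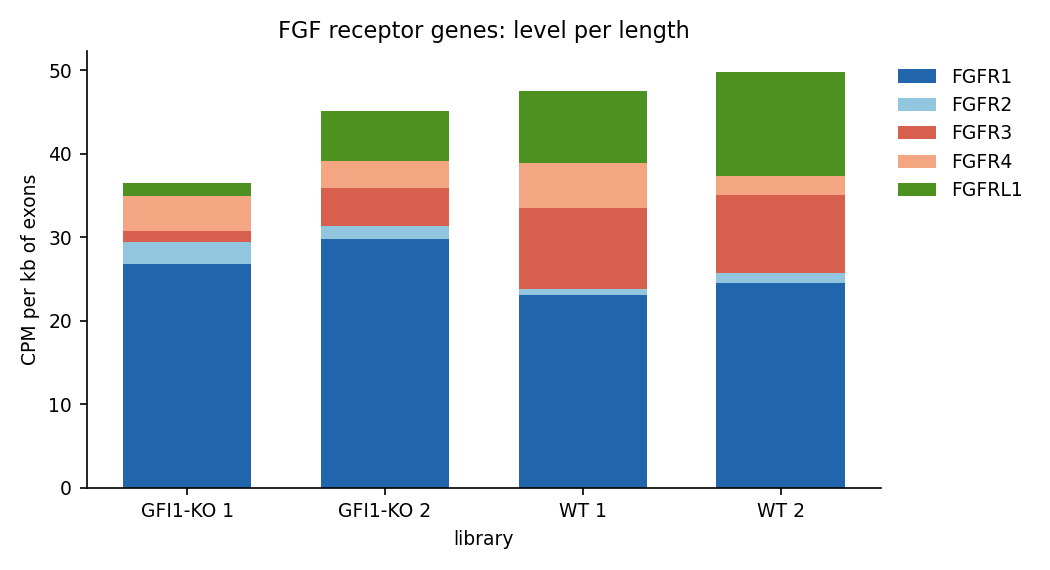
Stacked level per length (CPM per kb of exons) of the 5 FGF receptor genes in each library, 1 bar per library, GFI1-KO left of WT. The FGFR1 segment is the tallest in all 4 bars, and the FGFR3 and FGFRL1 segments are shorter in both GFI1-KO bars.

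Set in order by level per length, FGFBP3 and FGFR1 headed the group in both genotypes. In GFI1-KO the means were 28.3 CPM per kb for FGFR1 and 26.4 for FGFBP3, and the ranges of these genes overlapped. FGFRL1 (3.81 CPM per kb), FGFR4 (3.67), FGFR3 (2.93), FGF12 (2.53) and FGFR2 (2.13) followed, each overlapping its neighbour, then FGF2 at 1.179 and FGF13 at 0.782. For all genes after FGFBP3 the GFI1-KO replicate 1 value rests on 1 or 3 counts, at or below the floor, so their order is uncertain. In WT the order was FGFBP3 at 141 CPM per kb, FGFR1 at 23.8, FGFRL1 at 10.6, FGFR3 at 9.47, FGFR4 at 3.81, FGF2 at 1.64, FGFR2 at 0.963, FGF13 at 0.324 and FGF12 at 0.20. There the libraries of FGFRL1 and FGFR3, and of FGF13 and FGF12, overlapped, and the other neighbours did not. The order depends on the length used: per kb of coding sequence FGF12 ranked 3 in GFI1-KO, at 25.5 CPM per kb, and FGF13 ranked 4, at 21.1. By that length FGFR1, at 153 CPM per kb in GFI1-KO, was separate from FGFBP3, at 86.9. Per kb of the longest transcript FGFR1 and FGFBP3 were separate too, at 63.0 and 26.4.

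Among the genes for partners of the intracellular FGFs, a list made up mostly of sodium channel genes, edgeR called SCN9A and SCN3B higher in GFI1-KO. Of this list of 15, 7 genes were tested: 6 sodium channel genes and IKBKG, a regulator of NF-kappaB signalling. Calls were 2 higher and 0 lower, and 5 did not pass. Over all tested genes 0.773% were called higher and 0.185% lower. This list was chosen with earlier results of these data known, and nothing is read from its share. SCN9A, which encodes the channel NaV1.7 known from pain-sensing neurons, was at 13.2 and 24.0 CPM in GFI1-KO, against 3.13 and 4.62 CPM in WT (log2 fold change 2.50, SE 0.49, edgeR adjusted p = 0.0210). SCN3B, a beta subunit that adjusts channel gating, was at 92.7 and 109 CPM in GFI1-KO, against 42.9 and 44.9 CPM in WT (log2 fold change 1.26, SE 0.25, edgeR adjusted p = 0.0225). Neither gene overlapped between the genotypes, and SCN9A had 2 counts in GFI1-KO replicate 1 while SCN3B had 14. SCN9A passed the low-count filter only with the GFI1-KO libraries, where it was higher. Its WT libraries, at 7 and 11 counts, did not meet the filter on their own, and its call carries that limit. SCN8A and SCN4B had log2 fold changes of 0.86 and 0.87 (edgeR adjusted p = 0.770 and 0.841). IKBKG was the tested gene of the list with a value below 0, at -0.27 (edgeR adjusted p = 0.966). The median of the 7, IKBKG included, was 0.86, against -0.024 over all tested genes. SCN4B and SCN8A, like SCN9A, passed the low-count filter only with the GFI1-KO libraries. SCN4A, at 0 and 8 counts in GFI1-KO against 16 and 9 in WT, did not pass. The median depends on which genes passed, and nothing is read from it. Both calls were lost with DESeq2 (adjusted p = 0.858 for SCN9A and 0.430 for SCN3B) and without WT replicate 1 (0.403 and 0.332), WT replicate 2 (0.161 and 0.197) or GFI1-KO replicate 2 (0.651 and 0.224). SCN9A also lost its call at a mean of at least 5 CPM (0.0507), and its exons overlap AC010127.1.

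FGF12, FGF13 and these channels are best known from nerve and heart, so the markers of those tissues are set beside them. The 8 neural markers, of which 7 had reads and ELAVL4 was highest, summed to 6.62 and 8.46 CPM in GFI1-KO, against 15.6 and 16.4 CPM in WT. The neural sum in GFI1-KO replicate 1 was 1 count, of ELAVL4, and lay under the floor of 19.9 CPM. The 6 cardiac markers, all with reads and led by NKX2-5, summed to 72.9 and 88.6 CPM in GFI1-KO, against 92 and 62.1 CPM in WT. The part of these markers in the FGF12, FGF13 and channel values was not tested.

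**Figure D4:**
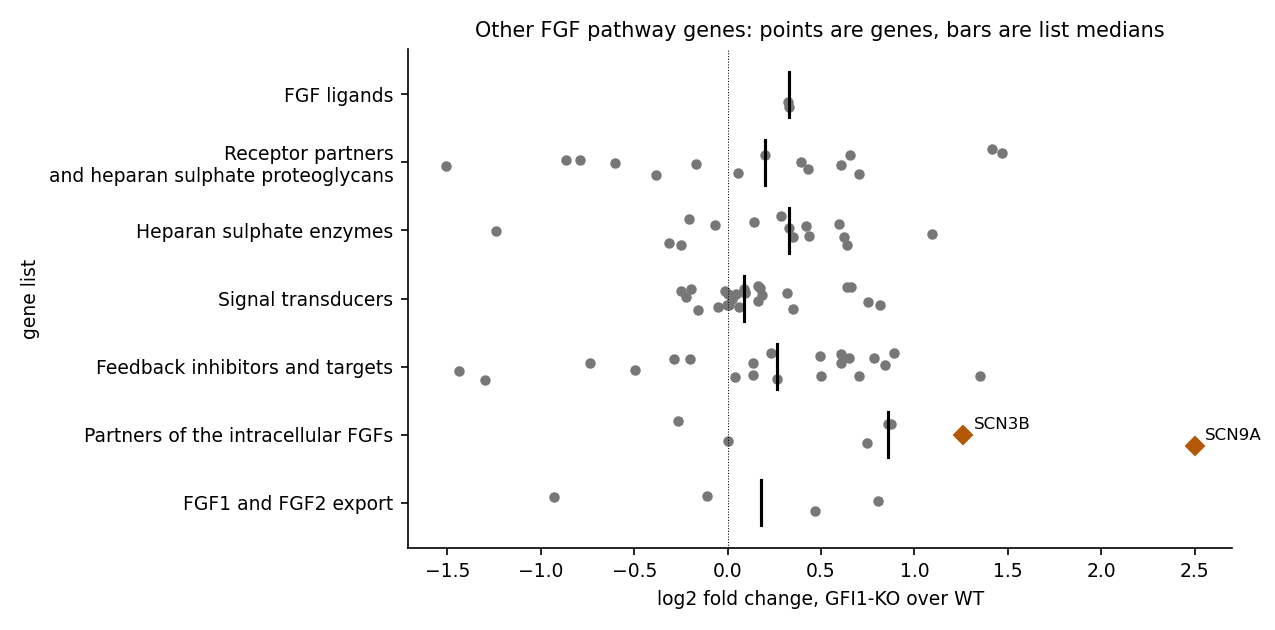
Log2 fold change (GFI1-KO over WT) of tested FGF pathway genes outside the 9 members, 1 point per gene in each list, with list medians as black bars and called genes as diamonds. SCN9A at 2.50 and SCN3B at 1.26 are the called genes of the 89 tested.

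Of the wider pathway, 89 tested genes outside the 9 members held 2 calls, both higher and both sodium channel genes. Values above 0 made up 62 of the 89 (69.7%), against 47.5% over all tested genes, with medians of 0.18 and -0.024 on the log2 scale. All of the lists were chosen with earlier results of these data known. At an unadjusted p under 0.05 edgeR gave 20 of the 89, 14 higher and 6 lower, and this held for 9.35% of all tested genes. DESeq2 called 0 of the 89, with 8 at an unadjusted p under 0.05, which held for 3.47% of all tested genes with that tool.

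Proteoglycans and receptor partners held 0 calls among 15 tested of 18 (edgeR; 5 at an unadjusted p under 0.05; 0 called by DESeq2), with a median of 0.20. GPC4, a glypican that carries heparan sulphate, was at 13.2 and 15.1 CPM in GFI1-KO, against 33.9 and 51.2 CPM in WT (log2 fold change -1.51, SE 0.38, edgeR adjusted p = 0.0743). KL, the co-receptor Klotho for FGF23, was at 6.62 and 38.7 CPM in GFI1-KO, against 12.1 and 11.8 CPM in WT (log2 fold change 1.47, edgeR adjusted p = 0.128). The KL value in GFI1-KO replicate 1 was 1 count, whose interval there, 0.168 to 36.9 CPM, covers both WT values. FLRT2 had a log2 fold change of -0.79 (edgeR adjusted p = 0.243). HSPG2, the basement membrane proteoglycan perlecan, SDC4 and CDH2 had the highest levels per length, with log2 fold changes of 0.60, -0.61 and 0.43 (edgeR adjusted p = 0.310, 0.574 and 0.698). HSPG2 overlaps LDLRAD2.

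Enzymes that build and edit heparan sulphate also held 0 calls among 15 tested of 21 (edgeR; 2 at an unadjusted p under 0.05; 0 called by DESeq2), with a median of 0.33. SULF1, which removes sulphate groups outside the cell, was at 26.5 and 42.7 CPM in GFI1-KO, against 19.2 and 18 CPM in WT (log2 fold change 1.09, SE 0.34, edgeR adjusted p = 0.179). EXTL3 and HS6ST2 had log2 fold changes of 0.64 and -1.24 (edgeR adjusted p = 0.305 and 0.566). EXT2 and NDST1, which were high per length together with EXTL3, were at -0.066 and 0.29.

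Signal transducers downstream of the receptors had 0 calls among 25 tested of 25 (edgeR; 4 at an unadjusted p under 0.05; 0 called by DESeq2), with a median of 0.090 and a range of -0.25 to 0.82. GAB1, a docking protein, CBL, a ubiquitin ligase of activated receptors, and MAPK3, the kinase ERK1, had the smallest adjusted p, with log2 fold changes of 0.82, 0.64 and 0.75 (edgeR adjusted p = 0.167, 0.302 and 0.381). The highest levels per length were those of SHC1, NRAS and PLCG1, at 0.18, 0.091 and 0.022. In the FGF1 and FGF2 export list 4 of 4 were tested, with 0 calls (edgeR; 1 at an unadjusted p under 0.05; 0 called by DESeq2) and values that include -0.93 for TEC, 0.81 for SYT1 and 0.47 for S100A13.

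Feedback inhibitors and transcriptional targets of the pathway held 0 calls among 21 tested of 21 (edgeR; 6 at an unadjusted p under 0.05; 0 called by DESeq2), with a median of 0.26. MYC was at 0 and 28.9 CPM in GFI1-KO, against 46.4 and 90.2 CPM in WT (log2 fold change -1.44, SE 0.41, edgeR adjusted p = 0.135). ETV4, an ETS factor induced by FGF, was at 66.2 and 88.6 CPM in GFI1-KO, against 142 and 136 CPM in WT (log2 fold change -0.74, SE 0.25, edgeR adjusted p = 0.239). SPRY4, a Sprouty inhibitor of the cascade, was at 172 and 233 CPM in GFI1-KO, against 130 and 133 CPM in WT (log2 fold change 0.70, SE 0.23, edgeR adjusted p = 0.216). DUSP6, the ERK phosphatase that serves as a readout of FGF signalling, was at 66.2 and 322 CPM in GFI1-KO, against 95.1 and 240.0 CPM in WT (log2 fold change 0.50, edgeR adjusted p = 0.845). FOS was at 39.7 and 274 CPM in GFI1-KO, against 75.9 and 178 CPM in WT. CCND1, the cyclin D1 gene, was at 265 and 522 CPM in GFI1-KO, against 338 and 367 CPM in WT. For DUSP6, FOS and CCND1 the GFI1-KO libraries lay on either side of the WT libraries. ETV4 shares exon positions with DHX8, DUSP6 with AC024909.2 and CCND1 with LTO1. Of the other genes named, SHC1, PLCG1, CBL, NDST1, EXTL3, CDH2, SCN8A, SYT1 and S100A13 also share exon positions with a neighbour.

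The number of pathway genes called depended on the setting. Without GFI1-KO replicate 1, 12 were called, 10 higher and 2 lower, where 3.18% of all genes were called. SCN9A, SCN3B, KL, SULF1, HSPG2, SPRY4, DUSP6, FOS, EGR1 and IER3 were higher, and GPC4 and MYC were lower. That fit has 1 GFI1-KO library, which is assumed to vary like the WT pair. EGR1, IER3 and, in the next fit, SPRY1 are named after their values were seen. Without GFI1-KO replicate 2, MYC and SPRY1 were called lower and 0 higher, where 2.36% of all genes were called. Without WT replicate 1, MYC was called (0.534% of all genes), and without WT replicate 2, EGR1 (0.833%). With the low-count filter removed 5 were called (1.96%), at a mean of at least 5 CPM 1 (0.452%), and with the replicate number as a block 6 (2.87%). The count stayed at 2 with DESeq2 size factors in edgeR (0.905%), upper-quartile scaling (0.51%) and the newer dispersion (0.51%), and was 0 with DESeq2 itself (0.255%).

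**Figure D5:**
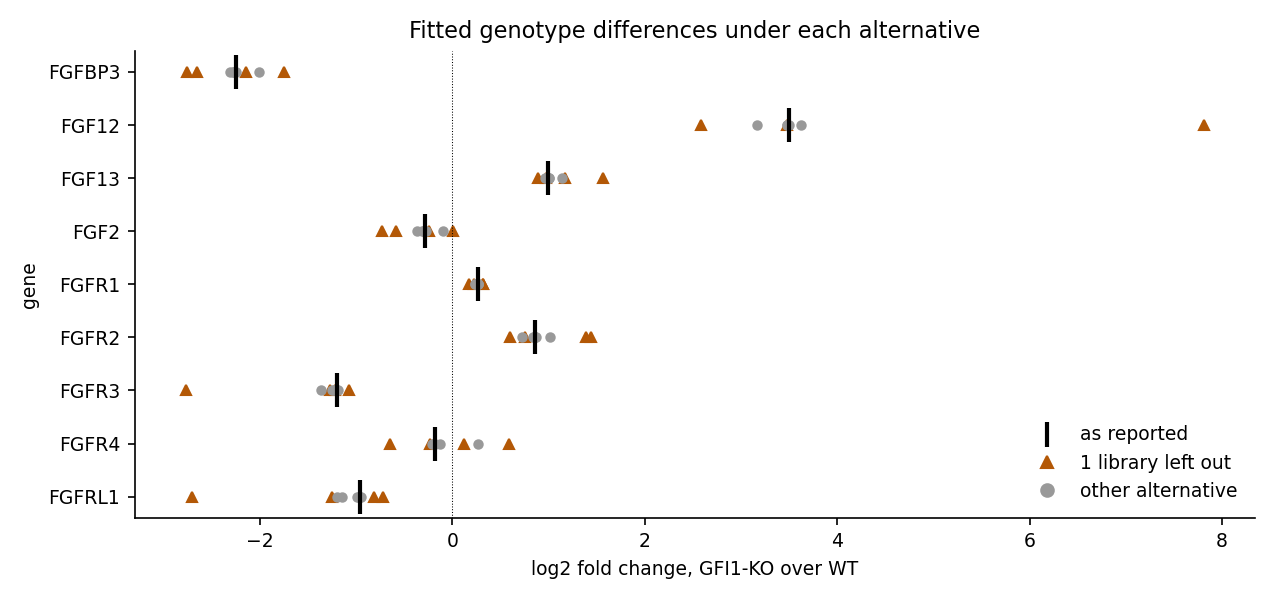
Log2 fold change (GFI1-KO over WT) of each of the 9 genes as reported (black bar), with 1 library left out (triangles) and under the other alternatives (grey points). FGFBP3 stayed between -2.75 and -1.75, FGF12 ran from 2.58 to 7.81, and FGF2 and FGFR4 crossed 0.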

How the data were processed

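Total RNA was extracted with Trizol and made into libraries with the Illumina TruSeq RNA kit, per the labels' protocols. The authors deposited unnormalized gene-level counts. The tools listed, per the submitters' processing notes, are DESeq 1.18.1, HTSeq 0.6.0, SAMtools 1.3.1 and HISAT2 2.0.4, on hg38 (GRCh38), without their roles. Annotation, strand setting and read filters: not given in the sources used here. Symbols, coordinates, lengths and overlaps came from GENCODE release 29, which matched 19902 of 19912 identifiers.

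The quasi-likelihood test of edgeR 4.0.16 was run in R 4.3.3 (filterByExpr, TMM, glmQLFit with the earlier dispersion form, glmQLFTest, Benjamini-Hochberg over 11380 genes). Fold changes put GFI1-KO on top, with prior count 0.125, and SE is the unshrunken log2 fold change over the root of F. Intervals and floors cover counting error only. Separate cultures are not stated for the replicates; p-values then reflect only spread among these samples, possibly technical. DESeq2 1.42.0, other scalings, filters and dispersions, leaving out single libraries and a replicate block were alternatives. The script was tested on simulated data. Members and lists were chosen with earlier results of these data known. Named genes were the members, the called genes of each list, and the 3 of each list with the smallest adjusted p and the 3 with the highest level per length. Promoter sequences are from RefSeq (GRCh38.p14); those of FGFR1 were not used here. A few genes that the naming rule selects are not reported here.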

Additional observations from a re-analysis of the deposited data

How the results depend on the processing

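Across 11 alternatives, the sign of the log2 fold change did not change for FGFBP3, FGF12, FGF13, FGFR1, FGFR2, FGFR3 and FGFRL1 wherever they were tested, with ranges of -2.75 to -1.75, 2.58 to 7.81, 0.89 to 1.57, 0.18 to 0.32, 0.60 to 1.44, -2.77 to -1.07 and -2.71 to -0.72. In these genes the libraries of the genotypes did not overlap, so leaving out a library could hardly turn the sign. The other alternatives reuse the same libraries, and the stable signs are no independent support. FGF2 ran from -0.72 to 0.011 and FGFR4 from -0.65 to 0.59. FGF12 passed the low-count filter in all of the alternatives but the fit without GFI1-KO replicate 2. The count of changed genes, 109 as reported, was 29 with DESeq2, 58 with the newer dispersion, 58 with upper-quartile scaling, 305 without the low-count filter, 50 at a mean of at least 5 CPM, and 62 to 373 with a library left out (lowest without WT replicate 1, highest without GFI1-KO replicate 1). The 2 changed pathway genes became 0 with DESeq2 (8 of 89 at an unadjusted p under 0.05), 5 without the filter, 1 at a mean of at least 5 CPM, and 1 to 12 with a library left out. With the replicate number as a block, 327 genes and 6 pathway genes were called. The labels tie the numbers to nothing shared, the deviations of same-numbered libraries correlated at 0.116 over 11380 genes, and the numbers were not used to pair samples. The cause of these changes was not tested. Log2 fold changes that turned were PLCG1 (-0.00013 with upper-quartile scaling, -0.0015 unfiltered) and, as ranges over the fits with a library left out, PLCG1 (-0.013 to 0.090), EXT2 (-0.17 to 0.018), DUSP6 (-1.33 to 1.25), KL (-0.83 to 1.70), NDST1 (-0.053 to 0.43), NRAS (-0.16 to 0.19), CCND1 (-0.40 to 0.57), FOS (-1.67 to 1.32), TEC (-1.16 to 0.11) and SYT1 (-1.15 to 1.00). Most of these turned without GFI1-KO replicate 2. There the median of all genes was -0.10, against -0.024 as reported. Depth limits the genes with 1 to 3 counts in GFI1-KO replicate 1, where the floor was 19.9 CPM.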

Other observations

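Several genes of heparan sulphate sulphation and of sodium channels were too low to be tested, and are given as counts; they were chosen after their values were seen. HS6ST3, which adds 6-O-sulphate, had 1 and 7 counts in the GFI1-KO libraries, against 0 and 0 in the WT libraries. HS3ST2, which adds 3-O-sulphate, had 0 and 3 counts in GFI1-KO, against 0 and 0 in WT. SCN4A, the skeletal muscle sodium channel gene, had 0 and 8 counts in GFI1-KO, against 16 and 9 in WT. SCN11A had 0 and 4 counts in GFI1-KO, against 0 and 1 in WT. In GFI1-KO replicate 1 none of these values exceeds the floor of 3 counts.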
